A study of Homo sapiens with 12 samples.

Results

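HEK293T is an established line of human embryonic kidney cells. The numbers of sequencing reads per gene were compared between 20 single HEK293T cells profiled by LAST-seq and 6 profiled by SMART-seq, from 3 of the 12 samples of the series. The members were chosen by assay and input alone, as all columns of the 2 LAST-seq read tables and of the SMART-seq read table of single cells. The LAST-seq cells came from 2 libraries of 10 indexed cells each, with the A60 spike-in mix in replicate 1 and the ERCC spike-in mix in replicate 2, and the cells of a library were pooled before amplification. No treatment is given for any of them, and whether the cells of both assays came from 1 culture is not given in the sources used here. Each SMART-seq sample is called a library below, although by the paper's protocol its cells or lysates were amplified in separate tubes. With 1 such library of single cells, and cells that are not replicates of an assay, no test between the assays was possible. A difference is therefore described against the distance between the LAST-seq libraries and the range over cells, and intervals cover counting error only, since reads copied by PCR are not independent molecules.

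Both assays start from the poly(A) tail of an RNA but amplify it differently. In LAST-seq a primer anneals to the tail, the end of the RNA is nicked and extended so that it carries a T7 promoter, and T7 RNA polymerase copies the RNA from that end without prior reverse transcription, so reads come from near the 3′ end. In SMART-seq, whose V4 kit was used here, the RNA is reverse transcribed from the tail to its 5′ end by template switching, the full-length cDNA is amplified by PCR and then fragmented, so reads cover the transcript. Most mitochondrially encoded mRNAs carry short poly(A) tails, whereas mRNAs of replication-dependent histones end in a stem-loop without one. Processed pseudogenes are copies of mRNAs that were reverse transcribed back into the genome, and their sequences can be nearly those of the parent gene.

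Spike-in species were removed, and reads were scaled to the total of gene reads per cell, as reads per 1000000 gene reads (RPM). LAST-seq cells held 574964 to 741686 gene reads in replicate 1 and 558917 to 719607 in replicate 2, and SMART-seq cells 812582 to 818780. Of the 7 HEK293T markers, 5 and 6 had reads in the LAST-seq libraries and 4 in the SMART-seq cells, and NEFM was at 0 in both assays. The list summed to 292 to 1080 RPM per cell over both LAST-seq libraries and 164 to 334 RPM in SMART-seq, led by the intermediate filament gene VIM with mean levels of 315, 465 and 191 RPM. The sum of the 5 blood markers stayed between 0 and 24.8 RPM per LAST-seq cell and was 0 in every SMART-seq cell, with HBB and HBG1 at 0 in all of them. The 4 epithelial markers summed to at most 29.5 RPM per LAST-seq cell and 162 RPM per SMART-seq cell, with the keratin gene KRT18 highest in every library.

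Each of the 6 SMART-seq cells was near-identical to 1 of the 16 wells of the SMART-seq lysate library with the ERCC mix. For each gene the squared difference between a cell and a well was divided by the total of both, and the mean of this value, which is about 1 where 2 columns differ by sampling alone, lay between 0.940 and 1 for the matching well and was at least 32.8 for the next closest. The 6 SMART-seq cells also stood apart from the other wells of that assay, since they detected 7742 to 8160 genes, against 12108 to 13105 in the 10 other wells of that library and 11936 to 12830 in the SMART-seq lysate library with the A60 mix. Of the 10 wells of the latter, 3 pairs differed by less than 2 on that measure, so that 1 well of each pair was used and 7 wells were counted. The labels do not say which columns of the lysate table are lysate. Results are therefore given with the single cells and, as a second reference, with the A60 lysate wells of SMART-seq. Their input is labelled single cell lysate and not single cell.

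Reads were divided among gene types by the annotation. Genes of the nuclear genome that encode proteins took a smaller share of the reads in LAST-seq, and mitochondrially encoded RNA and mitochondrial pseudogenes a larger one. Nuclear protein-coding genes held 71.3% ± 2.78 (SD, n = 10 cells) of the reads in LAST-seq replicate 1, 74.6% ± 1.32 (SD, n = 10 cells) in replicate 2 and 87.0% ± 0.443 (SD, n = 6 cells) in SMART-seq. The 20 LAST-seq cells ranged up to 77.0% and the SMART-seq cells from 86.5%, without overlap. The mean of the LAST-seq libraries minus SMART-seq was -14.1 percentage points, against an SD of 2.31 points between the LAST-seq libraries. These shares are parts of the same total, and mitochondrial genes and mitochondrial pseudogenes together differed by 16.4 points the other way. Outside mitochondrially encoded genes, with mitochondrial pseudogenes still counted, the protein-coding difference was -3.99 points. It is thus not separate from the mitochondrial difference.

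RNA of the mitochondrial genome (mRNA, rRNA and tRNA together) took 17.0% ± 2.16 and 14.1% ± 1.12 of the reads of LAST-seq replicates 1 and 2 (SD, n = 10 cells each), with 95% exact binomial intervals of the pooled reads of 16.9 to 17.0% and 14.1 to 14.2%. In SMART-seq it took 3.71% ± 0.243 (SD, n = 6 cells), with an interval of 3.70 to 3.73%. LAST-seq cells thus held 4.19-fold the mitochondrial share of SMART-seq cells, and no cell of one assay reached the range of the other. The share in the SMART-seq A60 lysate wells was 2.56% ± 0.354 (SD, n = 7 wells), lower than in any single cell of LAST-seq. CEL-seq2, in which reverse transcription comes before T7 amplification, gave 13.1% in its replicate 1.

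Not all other types followed. Long noncoding RNA (lncRNA) genes held 1.12%, 1.10% and 1.16% of the reads in LAST-seq replicates 1 and 2 and SMART-seq, and the ranges over cells overlapped. Genes of small RNAs, such as small nuclear and small nucleolar RNAs, held 0.0543%, 0.0534% and 0.0153%. Pseudogenes of all kinds held 10.3%, 9.92% and 7.95%. This sum hid opposite differences, as mitochondrial pseudogenes took 5.61% and 4.80% in LAST-seq but 0.613% in SMART-seq, while processed pseudogenes other than those of ribosomal proteins took 1.49% and 1.66% in LAST-seq but 4.14% in SMART-seq. Ribosomal protein pseudogenes held similar shares of 2.76%, 2.96% and 2.55%, with overlapping cells.

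**Figure D1:**
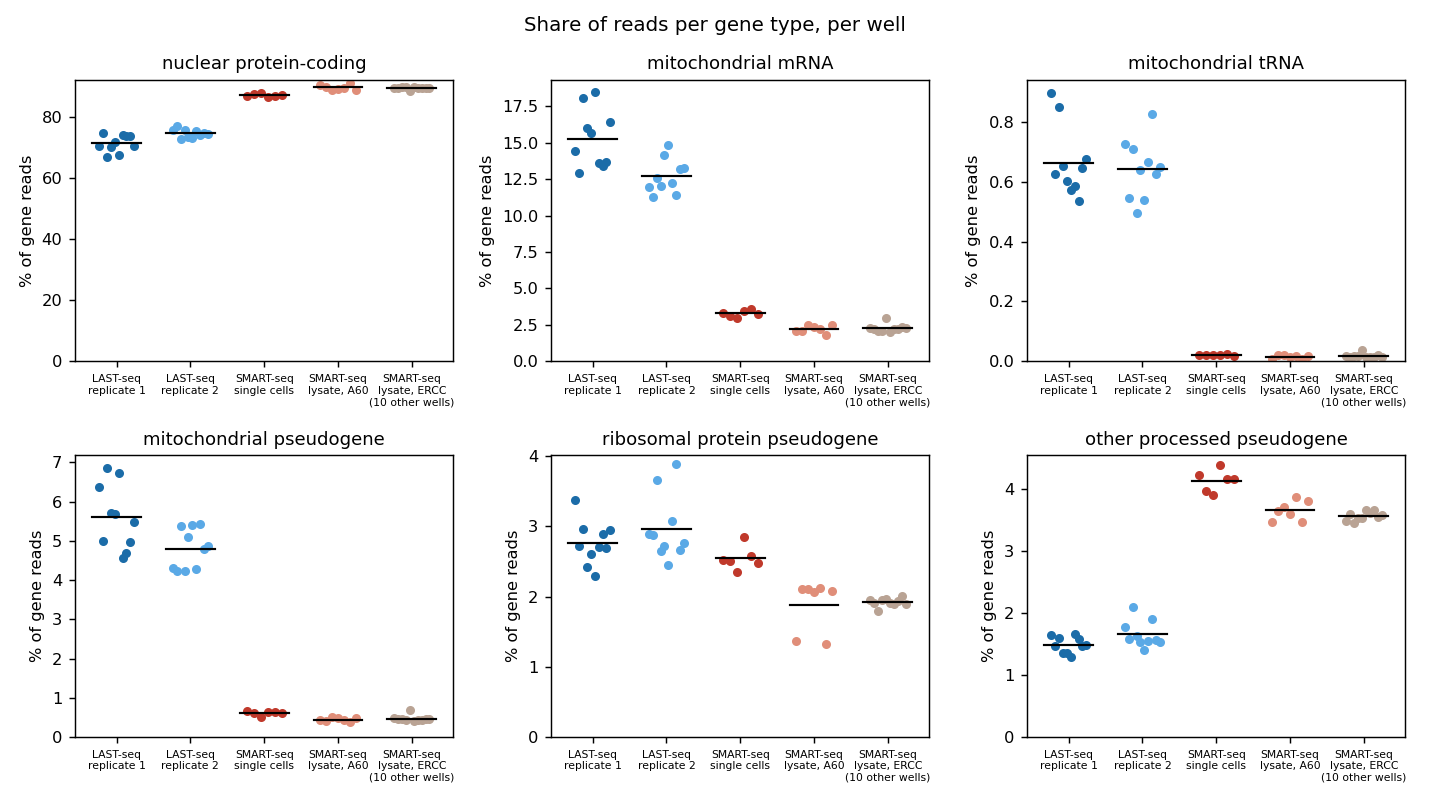
Share of gene reads (%, vertical axes from 0) of 6 gene types in each well, with 1 point per well and a black bar at the mean, for the LAST-seq replicates (blue, 10 cells each), the SMART-seq single cells (red, 6 cells) and 2 sets of SMART-seq lysate wells (pale, 7 with the A60 mix and 10 with the ERCC mix). The mitochondrial mRNA share lies from 11.3 to 18.5% in LAST-seq cells and from 2.94 to 3.59% in SMART-seq cells, and the share of other processed pseudogenes is higher in every SMART-seq well than in every LAST-seq cell.

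The mitochondrial genome encodes 13 mRNAs of the respiratory chain, 2 rRNAs and 22 tRNAs, and these did not differ by a common factor. In all, 6 of the 13 mRNAs passed 4-fold in favour of LAST-seq and 0 in favour of SMART-seq, beside 18.9% and 18.7% of all 10564 genes measured at a mean of at least 5 RPM. Here a call means 4-fold in the mean and in each LAST-seq library against the SMART-seq cells, with 0.5 RPM added. The median log2 ratio of the 13 mRNAs was 1.99, beside -0.31 over all genes measured.

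Among the 13 mRNAs, MT-ND3, which encodes a subunit of complex I, had the highest ratio. Its lowest, median and highest levels over cells were 20095, 26887 and 41902 RPM in LAST-seq replicate 1, 17683, 20656 and 26352 RPM in replicate 2 and 50.5, 95.6 and 201 RPM in SMART-seq. LAST-seq was thus 238-fold higher on the means, with a counting interval of 218 to 261, and 274-fold higher against the SMART-seq A60 lysate wells. MT-ND6, the only mRNA of the other mitochondrial strand and also of complex I, had lowest, median and highest levels of 10571, 15774 and 20650 RPM in replicate 1, 11206, 12559 and 15008 RPM in replicate 2 and 291, 347 and 425 RPM in SMART-seq, a 39.9-fold difference.

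MT-ND1 of complex I and MT-ATP6 of the ATP synthase were 11.2-fold and 9.14-fold higher in LAST-seq, again with no overlap of cells. The reverse held for MT-CO1, the catalytic subunit of cytochrome c oxidase. Its levels were 2659, 3106 and 3555 RPM in replicate 1, 2293, 2893 and 3312 RPM in replicate 2 and 7172, 8859 and 9886 RPM in SMART-seq, each as lowest, median and highest, so that every SMART-seq cell was above every LAST-seq cell by a mean factor of 2.96. MT-CO2, of the same enzyme, overlapped between the assays, with means of 5490.1, 4028 and 5202 RPM. MT-ATP8 and MT-ND4L, which share an mRNA and some bases with MT-ATP6 and MT-ND4 respectively, had log2 ratios of 0.18 and 0.31, far from those of their partners at 3.19 and 2.56. The rRNAs MT-RNR1 and MT-RNR2 were 3.49-fold and 2.15-fold higher in LAST-seq.

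**Figure D2:**
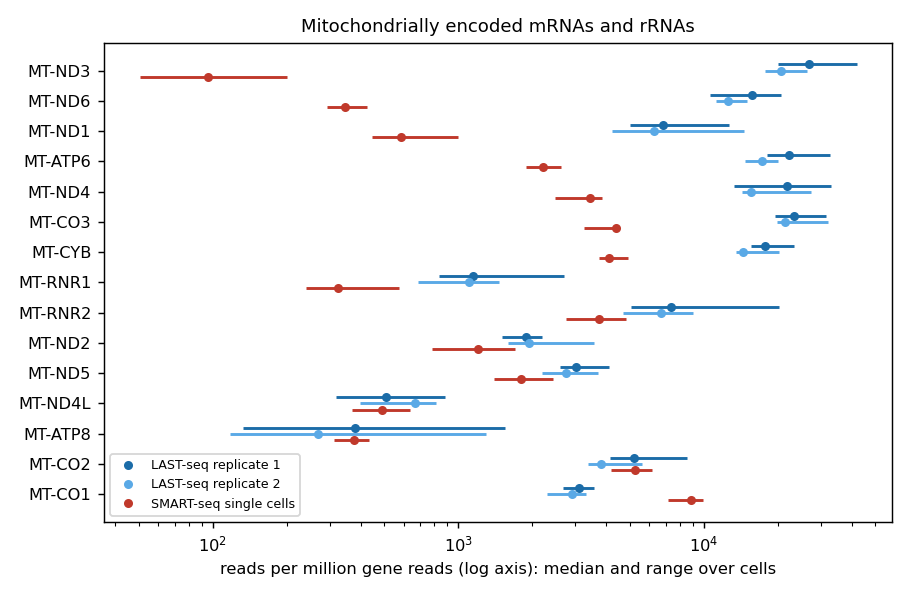
Level of the 13 mitochondrially encoded mRNAs and 2 rRNAs in RPM (log axis), with a point at the median and a line over the range of cells for LAST-seq replicate 1 (10 cells), replicate 2 (10 cells) and SMART-seq (6 cells). Genes are ordered by the log2 ratio of the means, from -1.57 for MT-CO1 to 7.89 for MT-ND3.

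The tRNAs of the mitochondrial genome, which carry amino acids to the mitochondrial ribosome, were the gene family with the highest ratio. Their summed reads came to 6633 and 6419 RPM in the LAST-seq replicates and 217 RPM in SMART-seq, with lowest, median and highest cells of 5340.2, 6349.9 and 8957 RPM, 4953, 6439.6 and 8246 RPM and 192, 219.9 and 243 RPM. Of the 17 tRNAs measured at a mean of at least 5 RPM, 15 were 4-fold higher in LAST-seq and 0 in SMART-seq. These genes are 59 to 75 bases long and lie directly beside the mRNAs and rRNAs, so that reads of neighbouring or unprocessed RNAs and of the tRNAs were not told apart. The highest levels in LAST-seq were those of MT-TE and MT-TS1, at 2664 and 1690.3 RPM on the mean of the replicates, against 12.3 and 68.0 RPM in SMART-seq. The ratios of MT-TE, MT-TM and MT-TT were 217, 194 and 107, with counting intervals of 169 to 285 for MT-TE and 111 to 358 for MT-TM. MT-TF had 238 and 166 RPM in LAST-seq and 1 read in SMART-seq. MT-TY, at 138, 186 and 39.2 RPM, and MT-TC, at 117, 116 and 42.3 RPM, were the 2 measured tRNAs with the lowest ratios.

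The sequences of these 3 tRNA genes and the last 30 bases of MT-ND3, MT-ND6 and MT-CO1 are shown because they belong to genes at the ends of the range of ratios, and the longest run of A is marked because both assays prime on poly(A). They are from GENCODE release 44 on GRCh38, read 5′ to 3′, with the longest run of A (the first one where several are equal) in capitals. The positions are chrM:14674-14742 on the minus strand for MT-TE, chrM:577-647 on the plus strand for MT-TF, chrM:4402-4469 on the plus strand for MT-TM, and, for the whole genes, chrM:10059-10404 on the plus strand for MT-ND3, chrM:14149-14673 on the minus strand for MT-ND6 and chrM:5904-7445 on the plus strand for MT-CO1.
MT-TE: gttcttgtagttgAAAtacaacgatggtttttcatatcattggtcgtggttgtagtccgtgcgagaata
MT-TF: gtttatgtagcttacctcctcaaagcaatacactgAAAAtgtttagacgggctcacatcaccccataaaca
MT-TM: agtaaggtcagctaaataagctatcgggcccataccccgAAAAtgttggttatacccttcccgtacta
MT-ND3: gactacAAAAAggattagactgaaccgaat
MT-ND6: attgtAAttgagattgctcgggggaatagg
MT-CO1: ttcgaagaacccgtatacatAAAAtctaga
The marked runs in MT-ND3, MT-ND6 and MT-CO1 are 5, 2 and 4 bases long, and whether they bear on the ratios was not tested.

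Mitochondrial pseudogenes are fragments of the mitochondrial genome that were inserted in nuclear chromosomes. Of the 160 annotated ones in the tables, 16 were measured at a mean of at least 5 RPM, of which 8 were 4-fold higher in LAST-seq and 1, MTCYBP18, in SMART-seq. Most of the reads fell on MTATP6P1 (GRCh38 chr1:633696-634376, plus strand), whose levels were 28007, 35739 and 47968 RPM in replicate 1, 25483, 29589 and 36288 RPM in replicate 2 and 940.2, 1205 and 1458 RPM in SMART-seq, as lowest, median and highest cell. MTND1P23 (GRCh38 chr1:629062-629433, plus strand) had means of 9110.4 and 9929 RPM in LAST-seq and 126 RPM in SMART-seq. In the last 300 bases of these transcripts, 43.8% and 59.8% of the words of 50 bases also occur in another annotated transcript. Their counts are therefore uncertain, and reads of mitochondrial RNA placed on them were not told apart from their own. MTND6P4 and MTND6P3, copies of MT-ND6, were 158-fold and 94.1-fold higher in LAST-seq, and MTCO2P12 12.9-fold. MTCO1P12, a copy of MT-CO1, had 1389, 1440.5 and 2812 RPM in LAST-seq replicates 1 and 2 and SMART-seq, so that it went the way of its mitochondrial counterpart. With the mitochondrial pseudogenes added to the mitochondrial genome, the share of reads was 22.6% and 18.9% in LAST-seq and 4.33% in SMART-seq.

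The number and kind of genes detected were compared with every cell thinned to 550000 gene reads. LAST-seq cells then detected 10132 ± 748 and 10580.2 ± 513 genes in replicates 1 and 2 (SD, n = 10 cells each) and SMART-seq cells 7582 ± 175 (SD, n = 6 cells). The lowest LAST-seq cell, with 8694 genes, was above the highest SMART-seq cell, with 7779. This order turned with the lysate wells of SMART-seq, which detected 11949 ± 372 genes with the A60 mix and 12049 ± 236 in the 10 other wells with the ERCC mix (SD, n = 7 and 10 wells), all of them above the highest LAST-seq cell at 11119.

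The gene types behind these numbers differed between the assays in either reference. Of the genes found in a cell, 83.9% and 83.5% were nuclear protein-coding in LAST-seq and 65.5% per SMART-seq cell, or 8498 ± 562, 8830.3 ± 391 and 4964 ± 143 genes (SD over cells). In the A60 lysate wells they numbered 8639 ± 315, within the range of LAST-seq cells of 7412 to 9195. Pseudogenes went the other way. They made up 9.54% and 10.2% of the genes detected in LAST-seq, 28.7% in SMART-seq single cells and 20.7% in the A60 lysate wells. In numbers, SMART-seq cells detected 2176 ± 23.8 pseudogenes from fewer genes in all, against 968 ± 101 and 1078 ± 63.3 in LAST-seq.

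The difference lay in processed pseudogenes outside the ribosomal protein family, of which SMART-seq cells detected 1357 to 1429 and LAST-seq cells 309 to 525. Pseudogenes of ribosomal proteins were detected in closer numbers of 458 to 497 and 317 to 435. LncRNA genes numbered 552 ± 83.4 and 553 ± 70.7 in LAST-seq and 358 ± 20.2 in SMART-seq single cells, but 710.1 ± 45.9 in the A60 lysate wells.

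**Figure D3:**
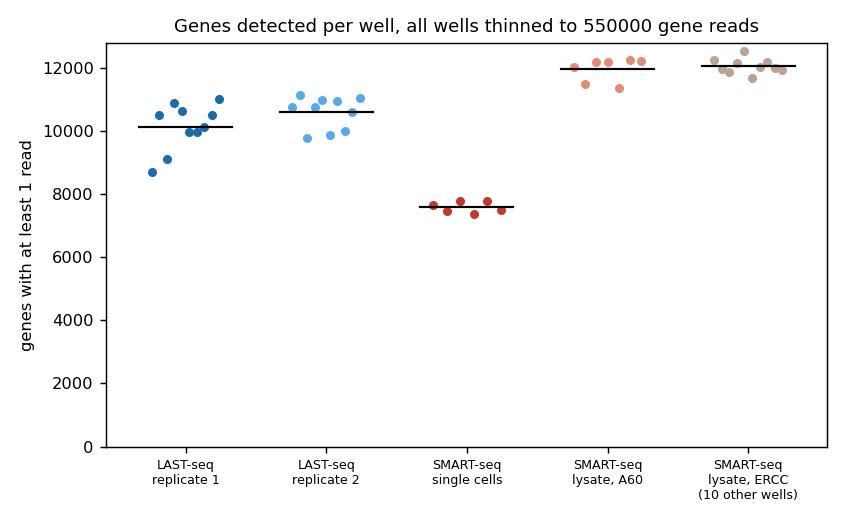
Genes with at least 1 read per well (vertical axis from 0) after thinning every well to 550000 gene reads, with 1 point per well and a black bar at the mean, for the LAST-seq replicates, the SMART-seq single cells and 2 sets of SMART-seq lysate wells. The single cells of SMART-seq lie from 7352 to 7779 genes, below all LAST-seq cells, and the lysate wells from 11366 to 12528, above them.

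Processed pseudogenes were set beside their parent genes, matched by symbol, for 3958 pseudogenes of 1215 parents. Of the reads on parents and pseudogenes together, the pseudogenes took 9.93% ± 0.627 and 9.99% ± 0.801 in LAST-seq (SD, n = 10 cells each) and 13.4% ± 0.448 in SMART-seq (SD, n = 6 cells). The ranges did not overlap, but most of the gap closed when LAST-seq reads were collapsed to unique molecular identifiers (UMIs), where the pseudogenes took 12.67% and 13.04%. The direction turned with lysate in both assays and LAST-seq UMIs, where LAST-seq was higher by 6.15 percentage points.

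Among parents with the most pseudogene reads, the shares went in both directions. For the chromatin protein HMGB1, pseudogenes took 3.52% and 4.40% of the reads in LAST-seq and 48.4% in SMART-seq, with 16.0, 16.8 and 1055 RPM on the pseudogenes. For the nucleolar protein NPM1 the shares were 8.74%, 7.92% and 38.6%, and for ribosomal protein RPL15 11.2%, 11.1% and 41.0%. By contrast, RPL3 and RPL13 pseudogenes took 63.6% and 71.4% in replicate 1 and 67.9% and 75.9% in replicate 2, but 17.5% and 30.3% in SMART-seq. The A60 lysate wells gave 46.8%, 38.1%, 42.1%, 17.3% and 29.8% for these 5 parents, close to the SMART-seq cells. The shares for the peptidyl-prolyl isomerase PPIA were 33.2%, 41.8% and 53.5%, and both the pseudogenes and PPIA itself were far lower in LAST-seq. The 79 PPIA pseudogenes held 69.3, 81.2 and 3103 RPM and PPIA 139, 113 and 2693 RPM. The 17 pseudogenes of the ferritin gene FTH1 held 7.23 and 19.4 RPM in LAST-seq and 1243 RPM in SMART-seq, and FTH1 itself had no read in LAST-seq. These genes share sequence with their copies, and how reads with several matches were counted is not given in the sources used here, so the division between a parent and its pseudogenes is uncertain in both assays.

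Across genes, 1996 of 10564 passed 4-fold towards LAST-seq and 1973 towards SMART-seq. Between the LAST-seq libraries themselves, 10.3% of 9903 genes differed 4-fold in either direction, and between the SMART-seq lysate sets 1.75% of 11001. The choice of SMART-seq reference mattered mainly for one direction. SMART-seq single cells were 4-fold below the A60 lysate wells in 15.3% of genes and 4-fold above them in 3.09%. Of the 1778 nuclear protein-coding genes called higher in LAST-seq, 633 were also 4-fold higher, on the mean, against those wells, and of the 1220 called higher in SMART-seq, 912 were. Over all gene types the count of genes higher in LAST-seq was 799 with the A60 lysate wells in place of the single cells. Scaling by the median ratio over protein-coding genes moved the median log2 ratio of all genes from -0.31 to 0.04 and the counts to 2238 and 1543. Of the 8819 nuclear protein-coding genes measured, 825 had no read in the 6 SMART-seq cells, 88 had none in the A60 lysate wells and 73 had none in the 20 LAST-seq cells.

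Calls by gene type gave the same split as the reads. Among processed pseudogenes outside the ribosomal proteins, 502 of 751 measured were 4-fold higher in SMART-seq and 41 in LAST-seq, and 486 of the former were also higher in the A60 lysate wells. No read fell on 139 of the 751 in LAST-seq, and these passed the level filter through SMART-seq alone. LncRNA genes divided evenly as measured, with 66 of 366 higher in LAST-seq and 72 in SMART-seq. With the length adjustment described below the counts were 82 and 60.

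Transcript length was taken from the canonical transcript of each gene, and the nuclear protein-coding genes measured were divided into 5 equal groups by it. Genes with short transcripts had lower ratios and genes with long transcripts higher ones. From the shortest group (276 to 1767 nt) to the longest (5841 nt and above), the median log2 ratio of LAST-seq over SMART-seq was -1.16, -0.61, 0.11, 0.70 and 0.85. In the shortest group 4.37% of genes were 4-fold higher in LAST-seq and 25.9% in SMART-seq, and in the longest 29.5% and 6.52%. Both LAST-seq libraries gave the order, with medians of -1.27 and -1.18 in the shortest group and 0.70 and 0.82 in the longest.

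Against the A60 lysate wells the medians ran from -1.09 in the shortest group to 0.11 in the longest, a smaller difference that came from the long genes. The level of a gene moved with the trend as well. Of 4 equal groups of nuclear protein-coding genes by level, in the lowest (5.01 to 14.2 RPM), the longest group had a median of 2.30 with the single cells and 0.19 with the lysate wells. In the highest of them it was -0.01 and -0.14. The shortest group stayed between -1.30 and -0.97 with the single cells in every one of the 4. Of the genes without a read in the SMART-seq cells, 28 were in the shortest length group and 250 in the longest. These genes passed the level filter through LAST-seq alone, so their numbers are no support for the trend. They are included in the medians and shares above, and the trend was not computed without them. The length groups also differed in median level, at 64.1 RPM in the shortest and 23.1 RPM in the longest.

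**Figure D4:**
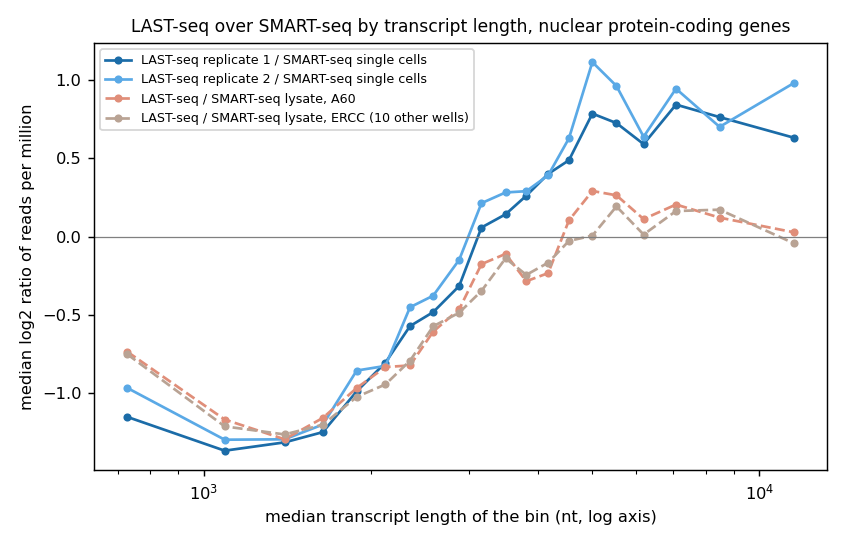
Median log2 ratio of LAST-seq over SMART-seq (vertical axis) of nuclear protein-coding genes in 20 bins of equal size by transcript length (horizontal log axis, nt), for each LAST-seq replicate against the SMART-seq single cells (solid) and for the mean of both against 2 sets of SMART-seq lysate wells (dashed). Medians over the 5 groups by length run from -1.16 to 0.85 against the single cells and from -1.09 to 0.11 against the A60 lysate wells, and the curves lie closer at short than at long transcripts.

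The base composition moved in the same direction. From the fifth of genes with the lowest GC content of the transcript (30.7 to 39.8%) to that with the highest (56.5 to 74.3%), the median log2 ratio rose from -0.52 to 0.62 with the single cells and from -0.87 to -0.02 with the A60 lysate wells. Across the 8819 genes, Pearson's r with the log2 ratio was 0.312 for log2 length and 0.173 for GC content, as a description of these libraries, since genes are not independent replicates. To set length aside, the median ratio of protein-coding genes of like length, in 20 bins, was subtracted from each gene. After that, 1965 genes (18.6%) were 4-fold higher in LAST-seq and 1622 (15.4%) in SMART-seq.

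The protein-coding genes with the highest ratios were abundant in LAST-seq and nearly without reads in the SMART-seq cells. SH3KBP1, an adaptor of receptor endocytosis, had lowest, median and highest levels of 205, 307 and 536 RPM in LAST-seq replicate 1 and 359.9, 504 and 1088 RPM in replicate 2, and 3 reads in all SMART-seq cells together. The ratio of the means was 730.5, with a counting interval of 244 to 3464. The kinase gene AKT2 had 180.2 and 114 RPM in the LAST-seq replicates and 1 read in SMART-seq, and it was also near 0 in the A60 lysate wells, at 0.712 RPM.

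Others among the highest ratios differed less from the lysate wells. SMARCA2, an ATPase of the SWI/SNF remodelling complex, EPB41L3, NCKIPSD and STRN4 each had 1 read in the SMART-seq cells and 119, 118, 109 and 123 RPM in LAST-seq. In the A60 lysate wells they held 19.4, 22.4, 35.5 and 21.1 RPM, so that their LAST-seq levels were 3.06- to 6.17-fold higher there. CCDC136 rested on 1 library, with 677 RPM in replicate 2 and 7.92 RPM in replicate 1. With the length adjustment, TRIP6, YRDC, RRS1 and PPP2CB joined the highest ratios, among which YRDC had no read in the SMART-seq cells but 86.1 RPM in the A60 lysate wells, near its 108 RPM in LAST-seq.

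Runs of at least 12 A before the transcript's end, to which a primer for poly(A) can anneal, were present in 20.2% of the 1778 nuclear protein-coding genes higher in LAST-seq, 16.8% of all measured and 10.5% of those higher in SMART-seq. Longer transcripts hold such runs more often, with 1.90% in the shortest and 39.1% in the longest length group of genes without an overlapped end, and the 2 sets differ in length, with medians of 4512 and 2189 nt. Whether the runs bear on the ratios was not tested.

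At the other end stood abundant and well known genes without reads in LAST-seq. TUBA1B, an alpha-tubulin of microtubules, had 949, 1111 and 1340 RPM in SMART-seq cells as lowest, median and highest, 908 RPM in the A60 lysate wells, and no read in the 20 LAST-seq cells. Against a floor of 3 reads per LAST-seq library it was at least 2537-fold higher in SMART-seq. FTH1, the heavy chain of the iron store ferritin, had 314, 458 and 493 RPM in SMART-seq and no read in LAST-seq, a difference of at least 977-fold. PPIB, a cyclophilin of the endoplasmic reticulum, was likewise without reads in LAST-seq and at 329 RPM in SMART-seq. CDK4, a kinase of the G1 phase, and TUBB, a beta-tubulin, had 1 read each in LAST-seq and 249 and 121 RPM in SMART-seq. EIF3L, a subunit of the translation initiation factor eIF3, had 219 RPM in SMART-seq and 1 read in LAST-seq. The membrane protein gene TMEM179B and the transcription factor gene DEAF1 completed the 8 lowest, and DEAF1 had reads in 3 of the 6 SMART-seq cells. With the length adjustment, BECN1 of autophagy and TRAP1, a mitochondrial chaperone, joined them at 126 and 151 RPM in SMART-seq and no read in LAST-seq, as did IDH3A of the citric acid cycle and VWDE.

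Several of these genes were also low in CEL-seq2, the other assay here that counts 3′ ends. It held TUBA1B, FTH1 and TUBB at 0 RPM and CDK4, PPIB and EIF3L at 0.250, 3.73 and 1.91 RPM.

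For 5 of the 8 lowest the 3′ end overlaps an exon of a gene on the other strand. The choice of genes did not use this property, but the property was picked after their values were seen. TUBA1B (GRCh38 chr12:49127782-49131397, minus strand) meets TUBA1B-AS1, FTH1 (chr11:61959718-61967634, minus strand) meets BEST1, PPIB (chr15:64155740-64163134, minus strand) meets SNX22, CDK4 (chr12:57747727-57756013, minus strand) meets TSPAN31 and TMEM179B (chr11:62787402-62790400, plus strand) meets TMEM223. The LAST-seq levels of the partners in replicates 1 and 2 were 0 and 0 RPM for TUBA1B-AS1, 0.146 and 0 RPM for BEST1, 0.137 and 0.583 RPM for SNX22, 69.6 and 7.64 RPM for TSPAN31 and 28.0 and 9.97 RPM for TMEM223. EIF3L overlaps ENSG00000279738 on its own strand instead, and no such overlap was annotated for TUBB and DEAF1. The ends of FTH1, PPIB, TUBA1B and CDK4 are shown in 30 bases of the canonical transcripts (GENCODE release 44), as bases 1173 to 1202 of 1203, 851 to 880 of 893, 1598 to 1627 of 1627 and 1836 to 1865 of 1865 respectively. Capitals mark the polyadenylation signal AATAAA, which was found in the last 50 bases of FTH1 and PPIB and not of the other two.
FTH1: tttttatgAATAAAaggcattaaaggctga
PPIB: cactgaccAATAAAaaaaaatgtgggtttt
TUBA1B: tatctcaaagtaaagtcattaacatcaaaa
CDK4: aaaaaaaaagaatatagatttttaaatggc
AATAAA or ATTAAA, read on the transcript's strand, was found in the last 50 bases of 82.7% of all nuclear protein-coding genes measured.

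Over all nuclear protein-coding genes measured, the last 300 bases of 960 of 8819 (10.9%) overlapped an exon of the other strand. The share was 7.65% among genes higher in LAST-seq and 22.1% among those higher in SMART-seq. The median log2 ratio was -0.97 with such an overlap and -0.02 without. Within the shortest length group the medians were -2.10 and -1.08, within the longest 0.13 and 0.92, and the lower value stood with the overlap in all 5 groups. With the A60 lysate wells as the reference they were -1.16 and -0.34. The part of the overlap in these ratios and in the missing reads was not tested, and the strand setting of the counting is not given in the sources used here.

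Genes often used as references were among those lower in LAST-seq. ACTB, the beta-actin of the cytoskeleton, had lowest, median and highest levels of 189, 289 and 533 RPM in replicate 1, 177, 307 and 406 RPM in replicate 2 and 3801, 5004 and 5500.4 RPM in SMART-seq, a 15.9-fold difference of the means. The related ACTG1 did not share it, with means of 1947, 2229.6 and 1679 RPM. GAPDH, of glycolysis, had 29.1, 76.1 and 210.4 RPM in replicate 1, 13.3, 56.1 and 97.9 RPM in replicate 2 and 2546, 2733 and 4697 RPM in SMART-seq, 45.0-fold higher in the last. Its end also overlaps an exon of the other strand, of ENSG00000269968. EEF1A1, the elongation factor of translation, was 8.83-fold higher in SMART-seq. No cell of one assay reached the other for ACTB, GAPDH or EEF1A1, and CEL-seq2 held levels of the order of LAST-seq for all of them, at 306, 79.0 and 106 RPM.

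Gene families were defined by symbol, and each is given by its counts of 4-fold calls and its median, beside 18.9% of all genes higher in LAST-seq, 18.7% higher in SMART-seq and a median of -0.31 over all genes. Cytosolic ribosomal proteins, with short and abundant mRNAs, had a median above that of genes of like length. Of 85 measured, 10 were higher in LAST-seq and 2 in SMART-seq, with a median log2 ratio of 0.28 that became 1.22 after the length adjustment. When length was instead handled by dividing SMART-seq reads by transcript length, this median turned to -0.31. RPS12 of the small subunit had the highest ratio, with means of 4105 and 5255 RPM in LAST-seq and 453 RPM in SMART-seq, and RPL11 of the large subunit was 7.99-fold higher in LAST-seq. RPL23A went the other way, at 199, 246 and 1197 RPM.

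Pseudogenes of ribosomal proteins had a lower median than the ribosomal protein genes, with 39 of 355 higher in LAST-seq, 100 in SMART-seq and a median of -1.01, or 0.03 after the length adjustment. This median was -0.17 with LAST-seq UMIs and turned to 1.42 with lysate in both assays. The most abundant of them went against that median. RPS23P8 held 2162 and 2052 RPM in LAST-seq and 471 RPM in SMART-seq, and RPL13P12 1603, 1715 and 863 RPM, while 74.5% and 66.1% of the words of 50 bases at their ends occur elsewhere.

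Other families of short mRNAs had medians below that of all genes. The mitochondrial ribosomal proteins, which are encoded in the nucleus, had 23 of 76 higher in SMART-seq, 1 in LAST-seq and a median of -1.37. The proteasome subunits had 8 of 33 higher in SMART-seq, 0 in LAST-seq and a median of -1.23, where the share higher in SMART-seq, 24.2%, was near that of all genes. Nuclear genes of the respiratory chain had a median of -0.61 over 98 members, in contrast to the mitochondrially encoded subunits of the same complexes. After the length adjustment these 3 medians were -0.39, -0.61 and 0.20. In the respiratory chain list, 2 members were higher in LAST-seq and 13 in SMART-seq. COX15, an assembly factor with a long transcript, had the highest ratio in that list. It had 90.0 RPM in LAST-seq, no read in the SMART-seq cells and 29.2 RPM in the A60 lysate wells.

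Families of long mRNAs had medians above that of all genes with the single cells as the reference. The chromatin regulators of the list had 16 of 40 members higher in LAST-seq, 4 in SMART-seq and a median of 1.17. The median was 0.25 with the length adjustment and -0.01 with the A60 lysate wells. Collagens, laminins and integrins had 7 of 18 higher in LAST-seq and a median of 1.71, or 0.79 adjusted. Kinesins and dyneins, the motors of microtubules, had a median of 0.67 that turned to -0.24 when adjusted, and of 0.63 and 0.05 with replicate 1 or 2 alone, so that it rested on 1 library. Among them was KIF1C at 132 RPM in LAST-seq and without reads in the SMART-seq cells. Of the ZNF zinc finger genes, the shares were 26.6% and 15.3%, with 59 of 222 higher in LAST-seq and 34 in SMART-seq.

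In families of intermediate length the shares of calls lay on either side of those of all genes, 18.9% towards LAST-seq and 18.7% towards SMART-seq. Of 58 translation factors, 15 were higher in SMART-seq and 7 in LAST-seq, or 25.9% and 12.1%, with a median of -0.88, and EIF4G2, an initiation factor, was 4.64-fold higher in LAST-seq at 1919.6 RPM. Chaperonins and heat shock proteins had 11 of 56 higher in SMART-seq, 3 in LAST-seq and a median of -0.89, with the co-chaperone DNAJC7 113-fold higher in SMART-seq and HSP90AA1 1.53-fold higher in LAST-seq. Tubulins and actins were above the share of all genes in SMART-seq before the length adjustment, with 7 of 18 (38.9%) higher there and 2 in LAST-seq. After it, 2 were higher in SMART-seq and 3 in LAST-seq, beside 15.4% and 18.6% of all genes. Their median went from -1.25 to -0.61. Among glycolysis genes, 4 of 16 were higher in SMART-seq and 1 in LAST-seq. ALDOA had 92.5 RPM in SMART-seq against 0.215 RPM in LAST-seq. ENO1 had 3245, 3322 and 3725 RPM, and PFKM was 7.37-fold higher in LAST-seq. Genes of snRNP and hnRNP proteins, of splicing, had 8 of 46 higher in LAST-seq and 7 in SMART-seq. Solute carriers had 31 of 121 higher in LAST-seq and 16 in SMART-seq, or 25.6% and 13.2%. SLC25A5 among them, an ADP/ATP carrier of the mitochondrion, was 4.72-fold higher in SMART-seq. The medians of the glycolysis, snRNP and zinc finger lists were within the shift that the median-ratio scaling makes, so no direction is given for them.

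**Figure D5:**
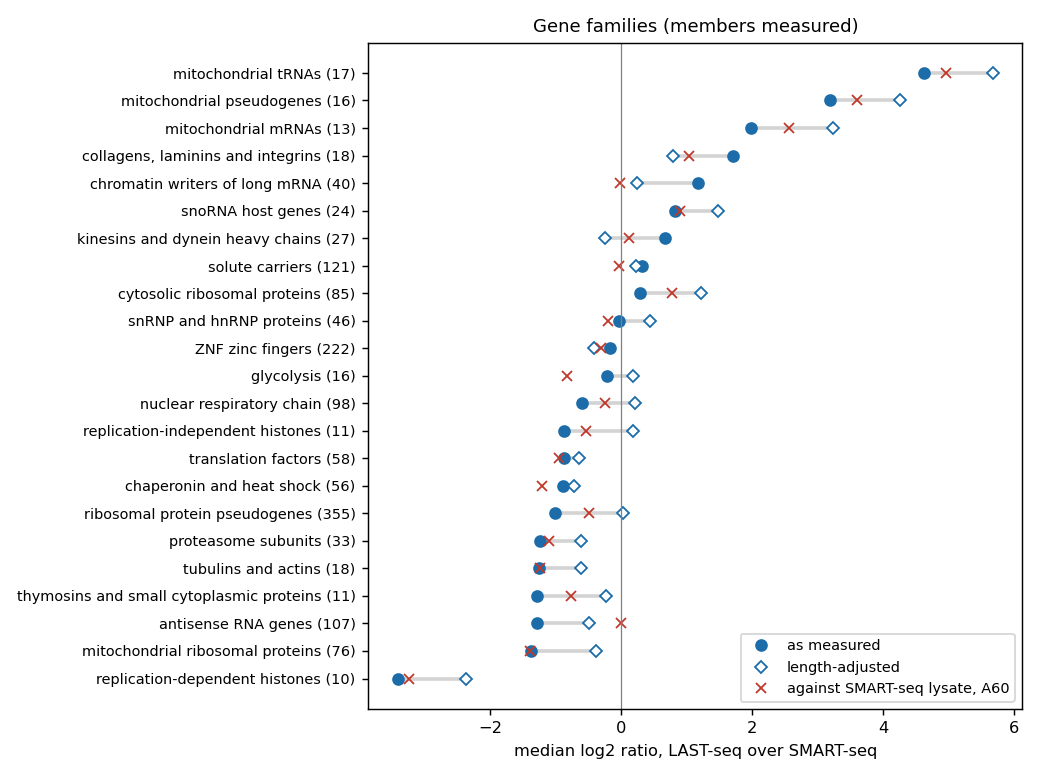
Median log2 ratio of LAST-seq over SMART-seq (horizontal axis) of the families with at least 10 members measured (number in brackets), as measured against the single cells (filled circles), after the length adjustment (open diamonds) and as measured against the SMART-seq A60 lysate wells (crosses). Mitochondrial tRNAs, at 4.63, and replication-dependent histones, at -3.41, are the ends of the range.

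Both classes of histone genes had medians below that of all genes before the length adjustment. Of the 10 replication-dependent histone genes measured, whose mRNAs end in a stem-loop, 7 were higher in SMART-seq and 0 in LAST-seq. Their median log2 ratio was -3.41. After the length adjustment their median was -2.36, with 4 of them higher in SMART-seq and 0 in LAST-seq. Their summed reads had lowest, median and highest values of 14.6, 29.5 and 268 RPM in LAST-seq replicate 1, 15.3, 243 and 687 RPM in replicate 2 and 2225, 2622 and 3659.8 RPM in SMART-seq cells. H4C3, a gene of histone H4, gave most of them, with means of 31.5, 192 and 2424 RPM. The A60 lysate wells held H4C3 at 688 RPM, below the single cells, and the share of cells in S phase, when these genes are expressed, is not given by the labels. Histone genes expressed through the cell cycle, with polyadenylated mRNAs, had a median of -0.87, with 1 of 11 higher in LAST-seq and 2 in SMART-seq. After the length adjustment this median turned to 0.18, with 3 higher in LAST-seq and 1 in SMART-seq. H2AZ1 was 1.78-fold higher in SMART-seq before the adjustment.

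Noncoding RNAs went in both directions. MALAT1, a nuclear lncRNA whose 3′ end is a triple helix and not a poly(A) tail, had lowest, median and highest levels of 0, 9.80 and 32.1 RPM in LAST-seq replicate 1, 0, 1.45 and 210.2 RPM in replicate 2 and 676, 2551 and 4454 RPM in SMART-seq. It was 134-fold higher in SMART-seq, without overlap, and at 1884 RPM in CEL-seq2. NEAT1, the scaffold of paraspeckles, overlapped between the assays, with means of 50.3, 44.1 and 74.1 RPM. Host genes of small nucleolar RNAs had 8 of 24 higher in LAST-seq and 5 in SMART-seq, from SNHG25 at 82.8 against 2.04 RPM to SNHG29 at 7.74 against 189 RPM. Antisense RNA genes had 16 of 107 higher in LAST-seq and 30 in SMART-seq, or 15.0% and 28.0%, beside 18.9% and 18.7% of all genes. After the length adjustment 19 were higher in LAST-seq and 19 in SMART-seq. As the counting is not stated to use strand, they cannot be told apart from the genes they overlap, and their median was -1.29 with the single cells and 0.00 with the A60 lysate wells.

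Among genes of other types, those with the highest ratios besides the mitochondrial tRNAs were BCYRN1, a neuronal RNA with an A-rich region, at 32.7 and 52.6 RPM in LAST-seq and 1 read in SMART-seq, EHBP1-AS1 at 94.7 RPM and 1 read, HELLPAR and the lncRNA gene ENSG00000286259. The latter held 367 and 294 RPM in LAST-seq, 1.43 RPM in SMART-seq and 310.1 RPM in CEL-seq2. HELLPAR reached 697 RPM in 1 LAST-seq cell and had a median of 4.98 RPM in that library. The lowest were pseudogenes of abundant genes, such as GAPDHP1, with 1 read in LAST-seq and 130.2, 158 and 281 RPM in SMART-seq cells, and FTH1P1, FTH1P11 and RPL23AP3. Of the 6 genes with reads in the family list of RNA polymerase III and RNase RNAs, 0 reached the level at which genes were measured. BCYRN1 is not on that list. RN7SL1, of the signal recognition particle, had 4.85, 8.91 and 2.65 RPM.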

How the data were processed

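Single HEK293T cells were profiled by LAST-seq in 2 libraries of 10 cells and by SMART-seq V4 in 1 sample of 6 cells. The deposited tables hold counts of reads per Ensembl gene, made by the authors by alignment to GRCh38 with GENCODE annotation 33. The submitters' notes name bcl2fastq 2.20. The strand setting and the handling of reads with several matches are not given in the sources used here. LAST-seq UMI counts deposited by the authors served as an alternative.

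Spike-ins were removed and reads scaled to reads per 1000000 gene reads (RPM) in Python 3.11.15 with numpy 2.4.6, pandas 2.3.3 and scipy 1.17.1, and plots were drawn with matplotlib 3.10.9. Gene types, lengths and sequences came from GENCODE release 44, which matched 99.7% of the IDs, and 70 IDs with reads in the 26 cells were not matched. Genes with a mean of the assays of at least 5 RPM were called at 4-fold with 0.5 added. Since SMART-seq has 1 sample of single cells, no test between assays was made. Counting intervals are exact at 95%, a gene at 0 was set against 3 reads per library, which is 0.440 RPM in LAST-seq and 0.613 in SMART-seq, and cells were thinned without replacement for detection. The length adjustment and the calls were tested on simulated data with known folds.

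Named genes were, at a mean of at least 20 RPM, the 8 protein-coding genes with the highest and the 8 with the lowest ratio, the same for other types with 6 each, the 4 highest and 4 lowest further genes after the length adjustment, the mitochondrially encoded genes, the 2 most abundant and the extreme members of each of 28 families, and genes fixed by name. Some of these are summarised by counts alone, and 1 is not reported here. The mitochondrial pseudogenes beyond the family members of that rule, the parents of pseudogenes and the end overlaps were chosen after their values were seen. The members and lists were chosen with earlier results of these data known.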

Additional observations from a re-analysis of the deposited data

How the results depend on the processing

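Differences are LAST-seq minus SMART-seq, in percentage points for shares and on the log2 scale for medians. With the A60 lysate wells of SMART-seq in place of the single cells and, in a choice made after seeing the data, with the 10 other wells of the lysate library with the ERCC mix, the difference in genes detected turned from 2775 to -1593 and -1693. With these 2 references in that order, the share of nuclear protein-coding reads differed by -16.7 and -16.5, of pseudogene reads by 3.46 and 3.48, of pseudogenes among genes detected by -10.8 and -10.7 and of pseudogene reads beside their parents by -2.22 and -2.21. The longest minus the shortest length group was 1.09 and 1.07, the genes higher in LAST-seq numbered 799 and 715 (1108 and 1065 length-adjusted), the ribosomal protein median was 0.78 and 0.72 (1.52 and 1.44 adjusted) and that of their pseudogenes -0.40 and -0.48 (0.38 and 0.29 adjusted).

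With LAST-seq UMIs the same quantities were -16.9 for protein-coding reads, 4.72 for pseudogene reads, -0.498 beside the parents, 1.84 for length, 0.36 for ribosomal proteins and -0.17 (0.67 adjusted) for their pseudogenes. With lysate in both assays and LAST-seq UMIs, also chosen after seeing the data, they were -29.1, 11.9, 6.15, 0.47, 1.24 (2.09 adjusted) and 1.42 (2.05 adjusted), the mitochondrial share differed by 16.6 and 1236 genes were higher in LAST-seq and 2969 in SMART-seq. Dividing SMART-seq reads by transcript length gave adjusted medians of -0.31 for ribosomal proteins and -2.36 for their pseudogenes and 3134 adjusted genes higher in LAST-seq. For these turns and moves the cause was not tested.

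Outside mitochondrially encoded genes, with mitochondrial pseudogenes still counted, the shares differed by -3.99 for protein-coding and 3.75 for pseudogene reads. Pseudogenes among genes detected differed by -19.8 without thinning and -16.7 with 2 reads required, where 2387 more genes were detected. The length difference was 1.91 with a pseudocount of 2, 1.50 at a mean of at least 20 RPM and 1.81 with the longest transcript. Counts higher in LAST-seq and SMART-seq were 773 and 1076 (907 and 689 adjusted) at 20 RPM and 3027 and 3075 without a filter, where 2955 adjusted genes were higher in SMART-seq. The ribosomal protein pseudogene median was -0.90 (0.10 adjusted) with the pseudocount, -0.70 (0.14) at 20 RPM, -0.62 (0.13) with median-ratio scaling and 0.13 adjusted with the longest transcript, and that of the ribosomal proteins 0.59 with median-ratio scaling. Leaving out each LAST-seq library or SMART-seq cell gave 1.95 to 2.19 for length, 0.21 to 0.32 for ribosomal proteins and -1.03 to -0.90 (-0.029 to 0.11 adjusted) for their pseudogenes.

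Among 170 named genes, the log2 ratio turned in 3 with the A60 lysate wells, to 0.00 for CAPN1-AS1, -0.75 for DNAJC25 and -0.45 for TUBGCP3, and in 2 without LAST-seq replicate 1, to -0.22 for KIF5B and 0.00 for MTCO3P4 (4.27 and 6.36 without LAST-seq replicate 2). No paired analysis was possible because LAST-seq and SMART-seq share fewer than 2 replicate numbers and the results come from no test. Depth limits single genes in SMART-seq, where 6 cells of 1 sample leave 3 reads at 0.613 RPM. The counting intervals leave out the spread between SMART-seq samples.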

Other observations

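A few genes owed their LAST-seq mean to 1 cell. KIF5B, a kinesin heavy chain, reached 16466 RPM in 1 cell of replicate 1, where the median was 293 RPM, and had at most 199 RPM in replicate 2. COL27A1, a fibrillar collagen, reached 1621 RPM in 1 cell of replicate 2 beside a median of 13.9 RPM, and the sulfate transporter SLC26A2 1444 RPM beside 18.1 RPM. The zinc finger gene ZNF3 reached 1117 RPM beside a median of 12.9 RPM. CCDC136, which was high in replicate 2 alone, was so in most of its cells, with a median of 612 RPM and a highest cell of 1038 RPM. The mitochondrial pseudogene MTCO3P4 was found in 1 cell of replicate 1 alone, at 405 RPM, and in no SMART-seq well used here.

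In the single-cell SMART-seq library, some genes also rested on few cells. DEAF1 had reads in 3 of 6 cells, VWDE in 2, ZNF773 in 4 and SLC41A2 in 3, with highest cells of 156, 166, 204 and 145 RPM.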
